A study of Mus musculus with 4 samples.

Results

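Germinal center (GC) B cells carrying 1 floxed allele each of Crebbp and Kmt2d (CK) were compared with wild-type (WT) GC B cells over all genes, in 3 stages of the deposited annotation: early centroblasts, cells in transition from centroblast to centrocyte, and centrocytes. Members were taken by their deposited stage name, which gave 3667 cells, 891 from WT and 2776 from CK, of 9804 annotated cells and 39009 barcodes in the series. Early centroblasts numbered 38 in WT and 342 in CK, transitioning cells 471 and 1498, and centrocytes 382 and 936. T cells of the same libraries, taken as barcodes without a stage name that held at least 2 UMIs (unique molecular identifiers, the tags by which captured transcripts were counted) of Cd3e, Cd3d and Cd3g together, numbered 2006 and 4035. Differences present in all 3 GC stages and absent from these T cells are described first.

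All libraries came from spleens taken 10 days after immunization with sheep red blood cells, from B220+IgD- cells sorted by flow cytometry. Every mouse carried 1 Cγ1-cre allele, which is driven from the IgG1 constant region locus and acts in B cells of the GC reaction. WT mice had no floxed allele, C mice were Crebbp fl/+, K mice were Kmt2d fl/+, and CK mice carried both floxed alleles. The C, K and CK libraries are all read against the 1 WT library. Each genotype was 1 mouse and 1 library, so genotype, mouse and library cannot be told apart, and no test between genotypes was run. The study's methods describe 8-week-old female mice of C57BL/6J background. Against that description, Y-linked transcripts were present in all 4 libraries, with Ddx3y at 42.4 to 68.7 CPM (the UMIs of a gene scaled to a common total per library) and Eif2s3y at 60.4 to 81.8 CPM, while Xist had between 0 and 13 UMIs.

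GC B cells shuttle between a dark zone, where centroblasts divide and mutate their antibody genes, and a light zone, where centrocytes present antigen to T cells and compete for their help. CREBBP is a histone acetyltransferase and KMT2D a histone methyltransferase that act at enhancers, and loss of 1 copy of either is common in follicular lymphoma. Enhancers held open by these enzymes keep genes for antigen presentation and for the exit from the GC reaction inducible.

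Counts were summed over the cells of a stage in each library and scaled to CPM. A log2 ratio is log2 of CPM in CK over CPM in WT, and its bracketed range is a 95% interval that covers counting error only. A gene was measured in a cell group where its mean CPM over both libraries corresponded to at least 20 UMIs in the smaller library. It counted as shared where it was at least 1.5-fold (0.585 on the log2 scale) higher or lower in CK in all 3 stages, and as absent from T cells where it was measured there and differed by less than 0.32 on the log2 scale in that direction. The WT early centroblasts held 235276 UMIs against 1744579 in CK, so a single WT UMI was worth 4.25 CPM and genes under 85.0 CPM on average were not measured in that stage. Totals were 2451846 and 5697381 UMIs in transitioning cells, 1829112 and 2708627 in centrocytes and 8052177 and 10753586 in T cells. Median UMIs per cell were lower in CK in each stage, with 6674 in WT and 5128 in CK for early centroblasts, 5278 and 3617.5 for transitioning cells and 4741 and 2670 for centrocytes, and also in T cells, with 3312 and 2041. The part that depth plays in the ratios was not tested.

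The GC B cell markers were read over all 3 stages together, so they do not tell 1 stage from another. In WT, 15 dark zone genes summed to 2975 CPM in early centroblasts, 3878 in transitioning cells and 3079 in centrocytes. A list of 25 light zone and T cell help genes summed to 5933, 4614 and 8507 CPM. WT early centroblasts were thus not the highest stage for the dark zone genes. Of the GC B cell markers, Rgs13 lay between 417 and 622 CPM, Fas between 200 and 244 CPM and S1pr2 between 129 and 172 CPM over the 3 stages of both libraries, while the Cd3 genes summed to 4.25 to 19.2 CPM. In the T cells the 16 other T cell markers summed to 8573 (WT) and 8390 CPM (CK). These T cells also held B cell transcripts, with 1565 (WT) and 1730 CPM (CK) over 6 B cell markers. Of the GC B cell markers, Rgs13 was at 66.1 and 80.8 CPM there and Fas at 53.4 and 61.5 CPM. Whether the Fas transcripts came from the T cells themselves was not tested. The part of B cell transcripts in the T cell values of genes that T cells use little was not tested either. Barcodes shared by the WT and CK libraries numbered 29, of which 12 lay in the compared cell groups.

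Over all genes, most transcripts lay close to the WT level in each cell group. The median log2 ratio of all measured genes was 0.08 in early centroblasts, 0.01 in transitioning cells, 0.03 in centrocytes and -0.01 in T cells. In early centroblasts 131 of 1838 measured genes (7.13%) were at least 1.5-fold higher in CK and 89 (4.84%) lower, which became 85 and 135 when ratios were centred on the median of all genes. Among 7314 genes of transitioning cells 340 (4.65%) were higher and 383 (5.24%) lower, and among 6669 genes of centrocytes 276 (4.14%) were higher and 224 (3.36%) lower. Centroblasts, which the comparison did not use to choose genes, had 347 (6.69%) higher and 326 (6.29%) lower of 5184. T cells had 206 (2.06%) higher and 247 (2.46%) lower of 10021, and non-GC B cells of the same libraries 220 (2.62%) higher and 288 (3.43%) lower of 8402. A share of 2.06% to 3.43% of genes was thus past the same fold in cells outside the GC stages. Shares are not directly comparable between cell groups, whose WT totals ran from 235276 UMIs in early centroblasts to 8052177 in T cells. The part of counting error in them was not tested.

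**Figure D1:**
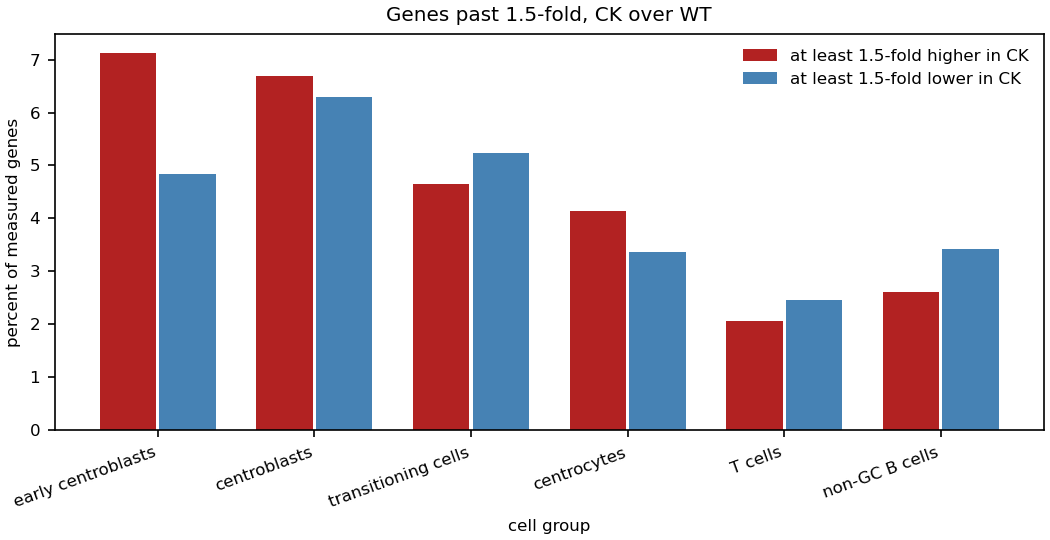
Percent of measured genes at least 1.5-fold higher (red) or lower (blue) in CK than in WT, for each cell group. The GC stages lie between 3.36% and 7.13%, and T cells and non-GC B cells between 2.06% and 3.43%. Cell groups differ in UMI totals, and the part of counting error in these shares was not tested.

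Few genes were past the fold in all 3 stages. Of 1812 genes measured in each of them, 9 (0.497%) were higher in CK throughout and 5 (0.276%) lower throughout. In centroblasts, which played no part in choosing them, 0 of the 9 higher and 5 of the 5 lower genes were past the fold, beside 6.69% and 6.29% of all genes. The rule on T cells left 4 higher genes (0.221%), Rgcc, Lmo4, Cenpv and Hspd1, and 2 lower genes (0.11%), Aldh2 and Evl. Cdca8, Cks1b, H2afz, Umps and Gm10076 were higher in T cells as well, by more than that limit but less than 1.5-fold, Gsn and Cotl1 were lower there by such an amount, and Gm47283 was past 1.5-fold lower in T cells too. By the smallest of its 3 log2 ratios, the higher gene just inside the threshold was Gm10076 at 0.595 and the lower one Evl at 0.588 in size. Just outside were Ube2e3 at 0.573 and Rps27 at 0.556.

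Rgcc encodes a cell cycle regulator that binds CDK1 and responds to complement. In early centroblasts it was at 42.5 (WT), 97.0 (C), 91.4 (K) and 139 CPM (CK). In transitioning cells the levels were 114 (WT), 153 (C), 166 (K) and 197 CPM (CK), and in centrocytes 20.8, 34.0, 29.6 and 42.8 CPM in that order. The order of WT and CK was fixed by the choice of the gene. C and K lay between them in each stage, read against the same WT value that the choice used. In early centroblasts the WT levels of Rgcc, Lmo4, Cenpv and Cdca8 were under 85.0 CPM, so each passed the filter through its CK level. For the lower genes Evl and Gsn the CK level was under it there, so both passed through their WT level. The log2 ratio of CK over WT was 1.71 (0.80 to 2.79) in early centroblasts, from 10 WT UMIs, 0.78 (0.59 to 0.98) in transitioning cells and 1.04 (0.50 to 1.61) in centrocytes. T cells held Rgcc at 107 (WT) and 112 CPM (CK), a log2 ratio of 0.07 (-0.06 to 0.20). Non-GC B cells, by contrast, had 10.0 (WT) and 21.8 CPM (CK), so the Rgcc difference was also present in B cells outside the annotated stages. In centroblasts, which were not used to choose the gene, it was 127 (WT) and 178 CPM (CK), with a log2 ratio of 0.49 (0.21 to 0.77), below the threshold.

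Lmo4, a LIM-only adaptor protein of transcription complexes, had 55.3 (WT), 108 (C), 160 (K) and 176 CPM (CK) in early centroblasts. Transitioning cells were at 123 (WT), 126 (C), 202 (K) and 203 CPM (CK), and centrocytes at 71.1, 77.0, 107 and 117 CPM. In both of these later stages the K and CK libraries were high and the WT and C libraries low. The ratios of CK over WT were 1.67 (0.88 to 2.60), 0.73 (0.54 to 0.92) and 0.71 (0.42 to 1.02), beside 0.30 (0.15 to 0.45) in T cells, just under the limit set there, and 0.24 (0.03 to 0.46) in centroblasts. The median of all genes in K over WT was -0.12 in transitioning cells and -0.11 in centrocytes, against which the K levels are to be read.

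Cenpv, a centromere-associated protein of dividing cells, was at 57.5 (WT), 100 (C), 110 (K) and 116 CPM (CK) in transitioning cells. In centrocytes it was at 28.4, 46.2, 37.6 and 46.5 CPM, and in early centroblasts at 68.0, 134, 88.9 and 122 CPM. CK was above WT in each stage by the choice of the gene, and C and K were above that same WT value. The log2 ratio of CK over WT was 0.84, 1.01 and 0.71 from early centroblasts to centrocytes and 0.12 (-0.12 to 0.37) in T cells. Non-GC B cells gave 0.79 (0.29 to 1.30).

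Hspd1 encodes the mitochondrial chaperonin HSP60. Its levels were 179 (WT), 317 (C), 222 (K) and 421 CPM (CK) in early centroblasts, 190, 254, 171 and 293 CPM in transitioning cells, and 161, 203, 159 and 247 CPM in centrocytes. K thus stayed near WT in both later stages while C and CK were above it. The ratios of CK over WT were 1.24 (0.79 to 1.72), 0.63 (0.48 to 0.78) and 0.62 (0.42 to 0.82), and 0.22 (0.14 to 0.31) in T cells. Hspe1, the cochaperonin encoded next to Hspd1, did not share this difference, with log2 ratios of -0.01, 0.15 and 0.18 in the 3 stages and -0.02 in T cells.

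The other higher genes included several that dividing cells use. Cdca8 encodes borealin of the chromosomal passenger complex and had 80.8 (WT) and 147 CPM (CK) in early centroblasts, 29.0 and 62.5 CPM in transitioning cells and 7.11 and 15.9 CPM in centrocytes. The filter corresponded to 10.9 CPM in centrocytes, so Cdca8 passed it there through its CK level. Cks1b, a subunit that CDK complexes bind, went from 115 (WT) to 185 CPM (CK) in early centroblasts and in the later stages from 48.9 to 89.2 CPM and from 15.9 to 25.8 CPM. The histone variant gene H2afz went in the same order from 2350 to 3930 CPM, from 1030 to 2080 CPM and from 423 to 673 CPM. Umps, an enzyme of pyrimidine synthesis, likewise went from 93.5 to 162 CPM, from 55.1 to 85.0 CPM and from 24.6 to 39.1 CPM. All of them were also higher in CK T cells, with log2 ratios of 0.44 for Cdca8, 0.37 for Cks1b, 0.54 for H2afz and 0.37 for Umps. In centroblasts, where Cdca8 and Cks1b were most abundant, their ratios were 0.12 (-0.02 to 0.26) and 0.05 (-0.12 to 0.22). Beside these values, a positive deposited S phase score was held by 37.4% of WT and 59.0% of CK transitioning cells and by 4.97% and 11.3% of centrocytes, and the part of this cell makeup in the ratios was not tested. Gm10076, a predicted gene, had ratios of 0.65, 0.60 and 0.59 in the stages and 0.58 in T cells, and 0.67, 0.63, 0.67 and 0.66 for K over WT.

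Promoter sequences are shown for 2 of these dividing-cell genes, chosen because they held the most CCAAT boxes and cell cycle homology regions (CHR), elements known from cell cycle genes, and for Rgcc and Evl, the higher and the lower gene whose T cell levels were closest between genotypes. They span 250 bases before and 50 after the annotated start in RefSeq (GRCm38.p6), 5′ to 3′ on the gene's strand, and 9 of the 14 shared genes had an entry. Motifs searched on both strands stand in capitals: CCAAT, in 37.4% of all 32851 promoters, the CHR letters TTTGAA in 17.9%, the E-box CACGTG in 7.15%, GCGGGAA as one E2F site in 4.6%, and TGACG, part of a cyclic AMP response element, in 20.8%.
Cdca8 promoter, chr4:124936868-124937167, minus strand: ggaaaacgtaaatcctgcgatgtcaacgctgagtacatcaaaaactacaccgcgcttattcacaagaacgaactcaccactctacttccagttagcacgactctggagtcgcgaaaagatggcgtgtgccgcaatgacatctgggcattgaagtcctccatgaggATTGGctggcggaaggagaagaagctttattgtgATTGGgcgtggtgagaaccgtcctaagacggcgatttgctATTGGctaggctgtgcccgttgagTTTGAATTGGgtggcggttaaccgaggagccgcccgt
Cks1b promoter, chr3:89418242-89418541, minus strand: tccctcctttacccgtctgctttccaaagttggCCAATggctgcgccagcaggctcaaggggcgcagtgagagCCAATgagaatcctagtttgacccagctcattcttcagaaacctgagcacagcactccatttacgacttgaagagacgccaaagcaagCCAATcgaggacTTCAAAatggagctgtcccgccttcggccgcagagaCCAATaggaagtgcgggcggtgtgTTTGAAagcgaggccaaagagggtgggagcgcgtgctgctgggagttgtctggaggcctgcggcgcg
Rgcc promoter, chr14:79301586-79301885, minus strand: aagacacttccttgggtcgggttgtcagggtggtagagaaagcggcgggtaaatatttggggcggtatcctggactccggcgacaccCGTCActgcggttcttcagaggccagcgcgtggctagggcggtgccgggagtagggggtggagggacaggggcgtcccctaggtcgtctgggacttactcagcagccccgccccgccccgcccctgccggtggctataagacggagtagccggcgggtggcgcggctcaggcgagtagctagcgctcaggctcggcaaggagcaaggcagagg
Evl promoter, first of 2 entries, chr12:108554470-108554769, plus strand: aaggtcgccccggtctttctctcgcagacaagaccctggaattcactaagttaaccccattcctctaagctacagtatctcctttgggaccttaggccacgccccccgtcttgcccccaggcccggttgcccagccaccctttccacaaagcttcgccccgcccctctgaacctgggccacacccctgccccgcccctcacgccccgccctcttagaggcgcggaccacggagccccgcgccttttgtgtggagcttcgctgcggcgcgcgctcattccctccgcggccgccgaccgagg
The Cdca8 window held 4 CCAAT boxes and 1 CHR match, which overlaps a CCAAT box read on the other strand, and the Cks1b window 4 CCAAT boxes and 2 CHR matches. Rgcc held 1 TGACG, and the Evl window held none of these letters. Of the other genes of dividing cells with an entry, Umps held 0 CCAAT boxes, 1 CHR match and 2 TGACG, and Cenpv held none of the motifs. CCAAT boxes were not limited to genes of dividing cells. Gsn held 0, 1 and 3 of them in its 3 entries, and the first Hspd1 entry held 1 and 1 E-box. Lmo4 held none of the motifs in any entry. Matches are a description of these windows and not evidence of binding.

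Aldh2, the mitochondrial aldehyde dehydrogenase that clears acetaldehyde and lipid aldehydes, was the lower gene with the most even difference. Its levels were 289 (WT), 188 (C), 214 (K) and 174 CPM (CK) in early centroblasts. In transitioning cells they were 313 (WT), 253 (C), 248 (K) and 184 CPM (CK), and in centrocytes 304, 236, 231 and 182 CPM. C and K lay between WT and CK in each stage, where the order of WT and CK was fixed by the choice of the gene. The log2 ratio was -0.73 (-1.12 to -0.33), -0.76 (-0.90 to -0.63) and -0.74 (-0.92 to -0.57). Centroblasts gave a larger difference, with 349 (WT), 234 (C), 223 (K) and 170 CPM (CK), a ratio of -1.03 (-1.22 to -0.85). Non-GC B cells were at 219 (WT) and 176 CPM (CK), a ratio of -0.32 (-0.46 to -0.17), and T cells at 45.1 and 38.1 CPM, a ratio of -0.24 (-0.45 to -0.03). With barcodes that Scrublet called doublets left out, the T cell ratio was -0.46, which is outside the limit set for T cells, so the absence of the Aldh2 difference from T cells depends on which barcodes count as T cells. With each cell thinned to 2000 UMIs the ratio was -0.21 in early centroblasts, where too few UMIs were left to count as measured, and -0.72 and -0.66 in the later stages.

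Evl encodes a protein of the Ena/VASP family that extends actin filaments. It was at 157 (WT), 110 (C), 79.6 (K) and 69.9 CPM (CK) in early centroblasts, at 132, 98.0, 100 and 77.4 CPM in transitioning cells, and at 145, 132, 111 and 96.4 CPM in centrocytes. The choice of the gene fixed CK below WT, and C and K lay between them in each stage. The ratios of CK over WT were -1.17 (-1.71 to -0.60), -0.77 (-0.98 to -0.56) and -0.59 (-0.84 to -0.34). T cells use Evl more, and there the levels lay together, with 236 (WT), 241 (C), 254 (K) and 237 CPM (CK). Without Scrublet calls the centrocyte ratio was -0.58, just short of the threshold.

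A pair of further actin regulators was lower in CK in every stage. Gsn, which encodes the filament-severing protein gelsolin, was at 132 (WT), 173 (C), 98.2 (K) and 57.3 CPM (CK) in early centroblasts, at 159, 137, 101 and 73.5 CPM in transitioning cells and at 209, 177, 148 and 117 CPM in centrocytes. Its ratios were -1.20, -1.11 (-1.31 to -0.91) and -0.84 (-1.06 to -0.62), with -1.45 (-1.76 to -1.14) in centroblasts. In T cells Gsn was low, at 35.9 (WT) and 28.4 CPM (CK), a ratio of -0.34 (-0.58 to -0.10). Cotl1, the coactosin-like protein that binds filamentous actin, was at 442, 231, 404 and 198 CPM in WT, C, K and CK early centroblasts, at 377, 239, 392 and 203 CPM in transitioning cells and at 428, 312, 535 and 280 CPM in centrocytes. Here C and CK were the low libraries, with K at a ratio of -0.13, 0.06 and 0.32 over WT. In T cells Cotl1 was at 356, 245, 436 and 263 CPM, again with C and CK below WT and K.

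**Figure D2:**
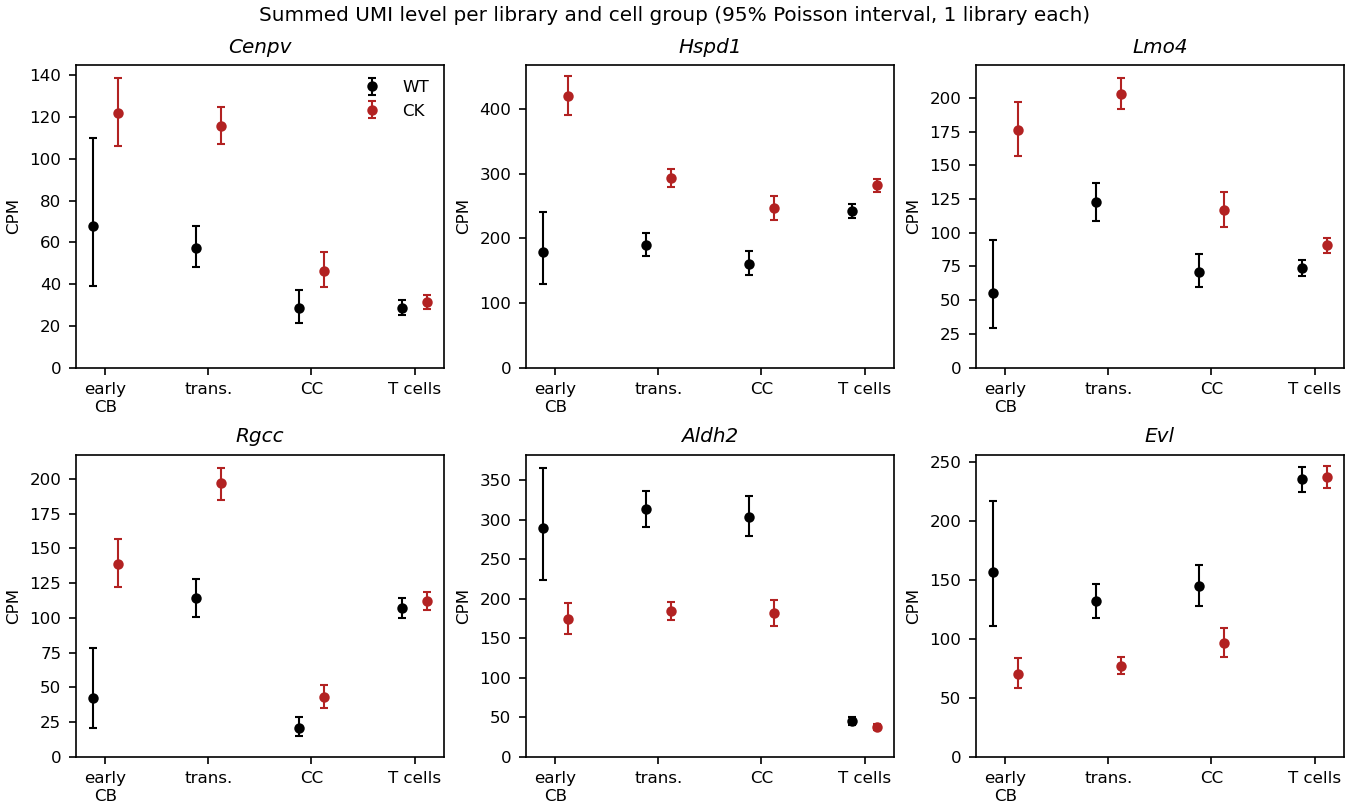
CPM of Rgcc, Lmo4, Cenpv, Hspd1, Aldh2 and Evl in the WT (black) and CK (red) libraries, for early centroblasts (CB), transitioning cells, centrocytes (CC) and T cells, with exact 95% Poisson intervals of counting error. The first 4 genes are higher and Aldh2 and Evl lower in CK in each stage, and WT and CK points lie closer together in T cells. Both follow from the limits by which these genes were chosen. Lmo4, Hspd1 and Aldh2 still differed in T cells in the same direction, by more than counting error.

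Positions of the named genes are those of GENCODE vM21 on GRCm38, matched by the Ensembl identifiers of the files. Rgcc (ENSMUSG00000022018) lies at chr14:79288756-79301645 on the minus strand, Lmo4 (ENSMUSG00000028266) at chr3:144188530-144205220 on the minus strand, Cenpv (ENSMUSG00000018509) at chr11:62524946-62539261 on the minus strand and Hspd1 (ENSMUSG00000025980) at chr1:55077835-55088243 on the minus strand. Aldh2 (ENSMUSG00000029455) lies at chr5:121566027-121593824 on the minus strand, Evl (ENSMUSG00000021262) at chr12:108554720-108688516 on the plus strand, Gsn (ENSMUSG00000026879) at chr2:35256380-35307892 on the plus strand and Cotl1 (ENSMUSG00000031827) at chr8:119809222-119840544 on the minus strand. The counts are of 3′ transcript ends per gene and do not separate exons.

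Early centroblasts limited these counts, since 38 WT cells allowed 1838 genes to be measured. When only transitioning cells and centrocytes were required, a choice made after seeing the data, 61 of 6545 genes (0.932%) were higher in both and 55 (0.84%) lower in both. Of these, 29 (0.443%) of the higher and 30 (0.458%) of the lower genes were absent from T cells. Centroblasts were not used in this choice but came from the same libraries. They measured 18 of the 29 higher genes, of which 16 were higher and 7 past the fold, beside 6.69% of all genes. Of the 30 lower genes they measured 15, of which 12 were lower and 10 past the fold, beside 6.29%. In non-GC B cells 5 of 28 measured higher genes and 0 of 27 measured lower genes were past the fold, beside the 2.62% and 3.43% of all genes there.

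Among the higher genes of both later stages, Tfdp2, a dimer partner of E2F factors, was at 8.97 (WT), 10.3 (C), 8.08 (K) and 20.5 CPM (CK) in transitioning cells and at 6.56, 9.02, 5.99 and 17.0 CPM in centrocytes. Only CK stood apart, with ratios of 1.19 (0.53 to 1.92) and 1.37 (0.43 to 2.42) and 24.0 and 23.2 CPM in WT and CK T cells. Rdx, the membrane to actin linker radixin, went from 6.53 (WT) to 23.7 CPM (CK) and from 9.84 to 21.0 CPM, with 103 and 109 CPM in T cells. The filter corresponded to 8.16 CPM in transitioning cells and 10.9 CPM in centrocytes. Rdx in both stages and Tfdp2 in centrocytes were under it in WT, so they passed through their CK level. Nedd4, a ubiquitin ligase, was at 33.9 (WT), 58.4 (C), 27.2 (K) and 84.6 CPM (CK) in transitioning cells and at 30.6, 53.6, 19.2 and 55.4 CPM in centrocytes. For Nedd4 the C library therefore lay with CK, and K below WT. The others among the 12 named by the size of their smaller ratio were Cd3eap, a subunit of RNA polymerase I that despite its symbol is no T cell receptor gene, L3mbtl3 and Scmh1 of the Polycomb and related repressor families, the kinetochore motor Cenpe, Cdca7, Magi2, the palmitoyltransferase Zdhhc2, Atp9b and Rgcc.

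Crebbp itself was among the lower genes of both later stages. It was at 78.7 (WT), 43.4 (C), 36.6 (K) and 39.5 CPM (CK) in transitioning cells, a ratio of CK over WT of -1.0 (-1.28 to -0.71), and at 61.8, 41.4, 38.4 and 33.6 CPM in centrocytes, a ratio of -0.88 (-1.29 to -0.47). T cells held 78.4 (WT), 75.1 (C), 47.0 (K) and 63.4 CPM (CK). The CK level was thus lower in GC cells than in T cells of the same library, and the K library, whose Crebbp alleles carry no lox sites, was low in GC cells and T cells alike. Low K levels were not limited to Crebbp. Over a list of 19 genes, Crebbp, Kmt2d and their partners, the median of K over WT was -0.58 in transitioning cells, -0.61 in centrocytes and -0.62 in T cells. For all genes it was -0.12, -0.11 and -0.18. Kmt2d had few UMIs and was at 16.7 (WT), 22.7 (C), 9.06 (K) and 15.3 CPM (CK) in transitioning cells and at 16.4, 27.6, 16.0 and 17.0 CPM in centrocytes. No difference of Kmt2d between CK and WT was detectable at this depth, with ratios of -0.13 (-0.68 to 0.44) and 0.05 (-0.64 to 0.76). Transcript ends counted at 3′ need not lie in the floxed exons, so neither gene checks the deletion.

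Other lower genes of both later stages had varied roles. Lcp2, the adaptor SLP-76, was at 27.3 (WT), 21.8 (C), 12.2 (K) and 10.4 CPM (CK) in transitioning cells and at 29.5, 29.2, 16.8 and 15.9 CPM in centrocytes, with K and CK low in both. T cells, which use Lcp2 most, were at 92.3 and 81.8 CPM in WT and CK. Ncf1, a subunit of the phagocyte NADPH oxidase that B cells also express, went from 47.3 CPM in WT to 17.2 CPM in CK transitioning cells, with 35.7 in C and 19.5 in K, and from 81.5 to 51.3 CPM in centrocytes. Gimap4, a GTPase of lymphocytes, went from 45.7 (WT) to 21.2 CPM (CK) and from 88.0 to 54.6 CPM, beside 249 and 211 CPM in T cells. Pglyrp1, a peptidoglycan-binding protein, had 12.6 (WT) and 4.04 CPM (CK) in transitioning cells, and Sfn, the 14-3-3 sigma gene, 30.2 and 15.3 CPM. The CK level of Pglyrp1 was under the 8.16 CPM of the filter there, so it passed through its WT level. The rule also named Ammecr1l, the Mediator subunit Med16, A530032D15Rik, Uba7, which activates ISG15, Aldh2, Iqce, Ankrd13a and the small GTPase Rhof.

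**Figure D3:**
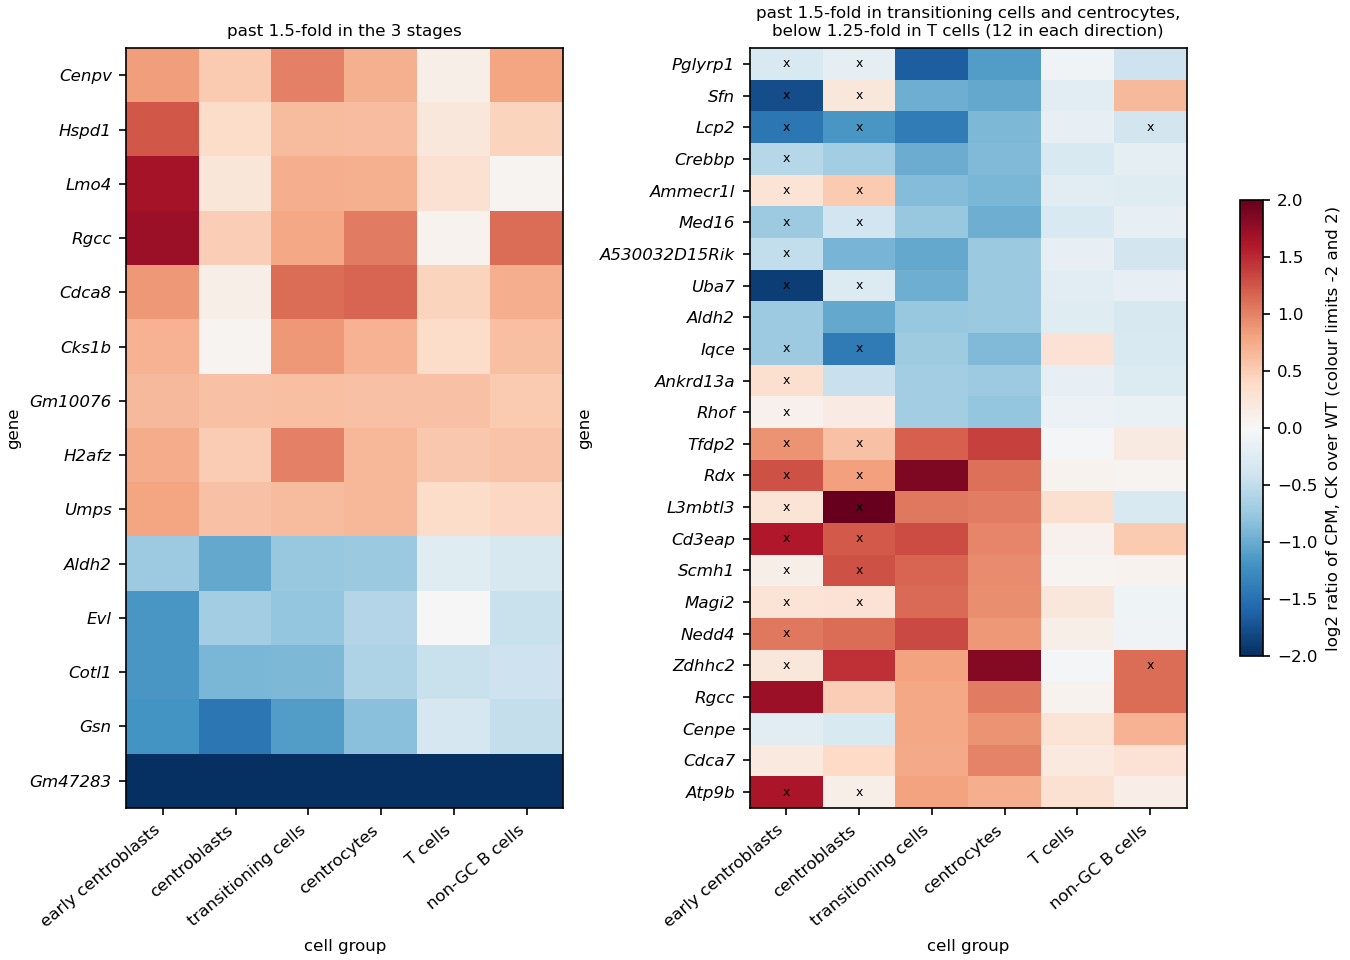
Log2 ratio of CPM of CK over WT (colour, limited to -2 and 2) in 6 cell groups, for the 14 genes past 1.5-fold in all 3 stages (left) and for the 12 genes in each direction with the largest smaller ratio among those past it in both later stages and absent from T cells (right), where x marks values not measured. In centroblasts the 5 lower genes of the left panel are past the fold and the 9 higher genes are not.

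The annotation names no cell with 2500 or more genes, so the deepest cells of every stage were outside it. Giving such cells the most frequent name among their 25 nearest cells added 139 WT and 130 CK cells to early centroblasts, 266 and 92 to transitioning cells and 37 and 4 to centrocytes. With them, 6527 genes were measured in all 3 stages. Of these, 11 (0.169%) were higher in CK throughout, of which 7 (0.107%) were absent from T cells, and 19 (0.291%) were lower throughout, of which 9 (0.138%) were absent from T cells. None of the 9 higher genes above was past the fold in all 3 stages with these cells added, and of the 5 lower genes Aldh2, Gsn and Gm47283 were.

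The genes that leave the count differ in how far their ratios moved. Rgcc was at 0.58, 0.63 and 0.89 in early centroblasts, transitioning cells and centrocytes with the added cells, and Lmo4 at 0.52, 0.58 and 0.72, all close to the threshold. Hspd1 was at 0.18, 0.32 and 0.29, and Cks1b at 0.23, 0.10 and 0.40, well under it. H2afz was at 0.33, 0.42 and 0.48, and Cdca8 at 0.20, 0.22 and 0.48. Of the lower genes, Aldh2 was at -0.66, -0.81 and -0.67, Gsn at -0.86, -0.84 and -0.70, Cotl1 at -0.98, -0.83 and -0.57 and Evl at -0.59, -0.72 and -0.52. All these genes kept their direction in each stage.

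Cells above the gene limit also brought genes into the count that the 38 WT early centroblasts were too few to measure. Tfdp2 was higher by 1.16, 1.01 and 1.41 on the log2 scale in early centroblasts, transitioning cells and centrocytes, and Nedd4 by 0.66, 0.77 and 0.80. Tox2, an HMG-box factor of lymphocytes, was higher by 1.86, 1.71 and 0.65, Pbx3, a homeobox factor, by 0.68, 0.89 and 0.94, and Coprs, which binds the histone arginine methyltransferase PRMT5, by 1.15, 0.65 and 0.74. In centrocytes the intervals of Tox2 (-0.27 to 1.62) and Coprs (-0.19 to 1.74) held 0, from 16 and 15 WT UMIs. Both were also past 1.5-fold higher in non-GC B cells, by 1.21 for Tox2 and 0.63 for Coprs. Among lower genes Lcp2 was at -1.10, -1.27 and -0.88, Ncf1 at -0.89, -1.14 and -0.79, Gimap4 at -0.80, -1.10 and -0.71, and Flna, the actin crosslinker filamin A, at -0.63, -0.64 and -0.63. Tfdp2, Nedd4, Lcp2, Ncf1 and Gimap4 were thus past the fold in transitioning cells and centrocytes with and without the added cells. Other genes entered with ratios that moved. Without the added cells Flna was at -0.405 in transitioning cells, short of the fold. In early centroblasts Pbx3 was then at -0.367, the other direction, and Tox2 at 0.479.

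**Figure D4:**
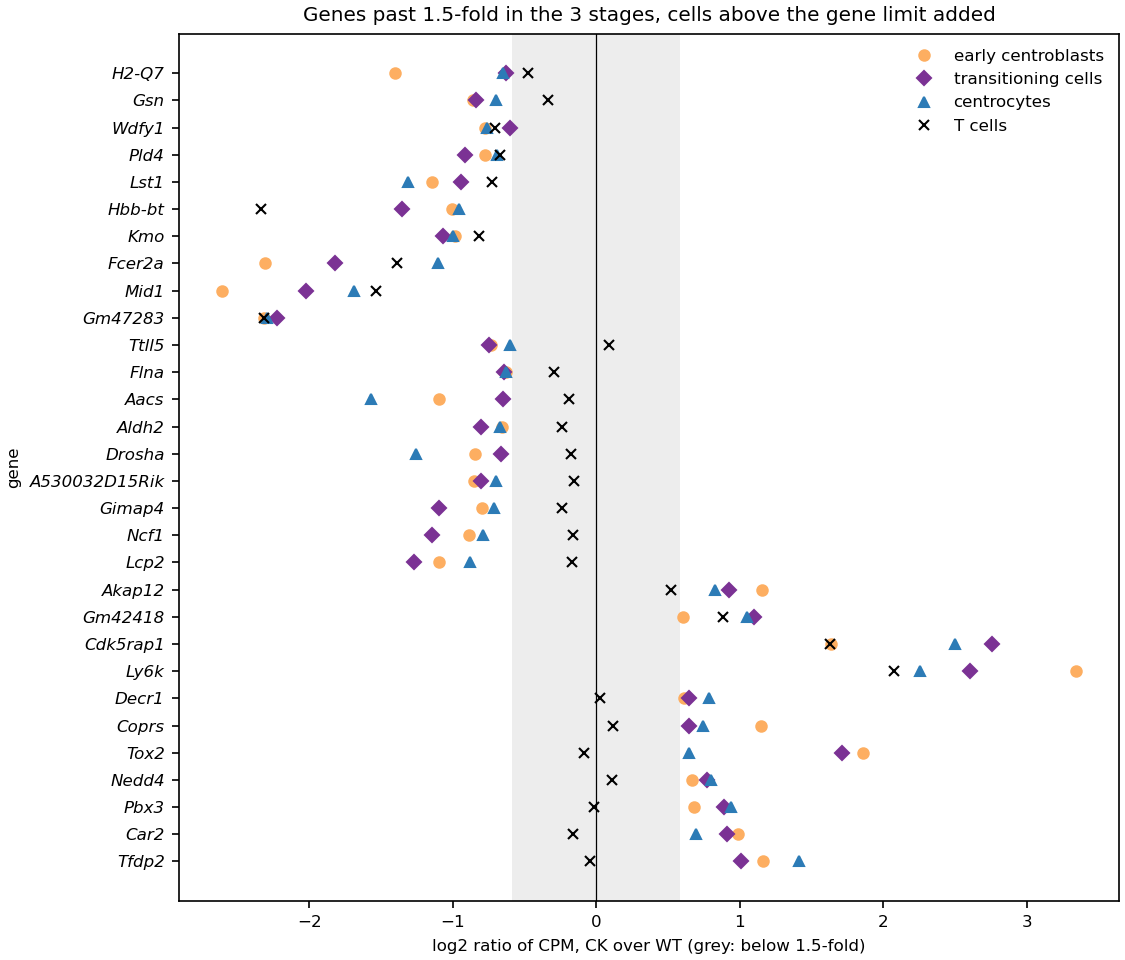
Log2 ratio of CPM of CK over WT in early centroblasts, transitioning cells, centrocytes and T cells for the 30 genes past 1.5-fold in all 3 stages once cells above the gene limit were added, with ratios below 1.5-fold in grey. The crosses for T cells lie in the grey band for the 7 higher genes from Tfdp2 to Decr1 and the 9 lower genes from Lcp2 to Ttll5. This follows from the T cell limit by which these genes were grouped.

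Gene groups were read as counts and medians beside the median of all genes. MHC class II genes, which present antigen to T helper cells, had a median log2 ratio of -0.56 in early centroblasts (9 of 9 measured genes below 0), -0.41 in transitioning cells (10 of 10) and -0.17 in centrocytes (9 of 10). It was -0.06 (7 of 10) in T cells and -0.23 (9 of 10) in non-GC B cells, so the lower level was not limited to the GC stages. Ciita, the coactivator that switches these genes on, was lowest, with 204 (WT), 100 (C), 102 (K) and 75.1 CPM (CK) in early centroblasts, 135, 110, 104 and 86.2 CPM in transitioning cells and 216, 196, 152 and 151 CPM in centrocytes. Ciita does not stand for the group in K, whose medians over WT were -0.05, -0.04 and 0.11 in the 3 stages. Those of C over WT were -0.28, -0.17 and -0.01. With the added cells the group's medians of CK over WT were -0.17, -0.20 and -0.11. The light zone and T cell help list had medians of -0.71 in early centroblasts (8 of 25 measured), -0.35 in transitioning cells (22 of 25) and -0.07 in centrocytes (22 of 25), beside -0.09 in T cells and -0.19 in non-GC B cells. With the added cells they were -0.36, -0.19 and -0.09. Nfkbia, the inhibitor that NF-κB itself induces, was at 259 (WT) and 99.7 CPM (CK) in early centroblasts but at 76.3 and 73.2 CPM in transitioning cells and 250 and 291 CPM in centrocytes. The dark zone list had medians of 0.15, -0.02 and -0.06 in the 3 stages, and the list of GC transcription factors -0.05, -0.17 and -0.07.

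Genes of B cell receptor signalling had medians of -0.25, -0.20 and -0.13 in the 3 stages, 0.04 in T cells and -0.09 in non-GC B cells. Actin cytoskeleton genes had medians of -0.21, -0.12 and -0.13 and 0.07 in T cells, and 17 of 21 were below 0 in transitioning cells and in centrocytes, against 7 of 21 in T cells. The median of all genes was 0.01 in transitioning cells and 0.03 in centrocytes. Only 1 of 21, Gsn, was past 1.5-fold lower in each of these 2 stages, beside 5.24% and 3.36% of all genes. Gsn was the lowest of the list, and Actb, at 13000 CPM in WT transitioning cells, had a ratio of -0.05 (-0.07 to -0.03). The Gimap GTPases, which are grouped on 1 chromosome and act in lymphocyte survival, had medians of -0.67 (2 of 8 measured), -0.50 and -0.21 (8 of 8), with -0.96 (7 of 8) in centroblasts and -0.12 in T cells, and -0.64, -0.33 and -0.22 with the added cells. Gimap6 went from 140 (WT) to 67.1 CPM (CK) in early centroblasts, from 211 to 113 CPM and from 200 to 147 CPM, while T cells had 363 and 346 CPM.

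DNA replication genes had a median log2 ratio of 0.20 in early centroblasts, 0.80 in centroblasts, 0.66 in transitioning cells and 0.46 in centrocytes. Of the measured members 22 of 28 were past 1.5-fold higher in centroblasts and 19 of 30 in transitioning cells, beside 6.69% and 4.65% of all genes. In centrocytes 9 of 24 were past it, beside 4.14%. In early centroblasts 2 of 28 were, no more than the 7.13% of all genes there. With the added cells 0 of 30 were past it in transitioning cells. Replication-dependent histone genes had medians of 0.80 (4 of 12 measured), 1.46 (10 of 12), 0.34 (5 of 12) and 0.64 (4 of 12) in the same order, and 0.41 (12 of 12) in T cells. Rrm2, a subunit of ribonucleotide reductase, was at 30.6 (WT), 44.0 (C), 74.3 (K) and 91.4 CPM (CK) in transitioning cells. The DNA replication list had a median of 0.37 in T cells and 0.42 in non-GC B cells, so it was higher in CK outside the GC stages as well. Mitosis genes had medians of 0.08 in early centroblasts, where the median of all genes was the same, 0.26 in centroblasts, 0.69 in transitioning cells and 0.19 in centrocytes, beside 0.40 in T cells and 0.60 in non-GC B cells. With the added cells the transitioning-cell median was 0.13 for DNA replication genes, 0.18 for mitosis genes and 0.20 for the histone variants, HMG proteins and tubulins of dividing cells, which had been at 0.55. Ribosomal protein genes were lower in every cell group, with medians of -0.16, -0.17 and -0.14 in the stages and -0.18 in T cells, and genes of oxidative phosphorylation had medians of 0.34, 0.24 and 0.15 and 0.17 in T cells.

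**Figure D5:**
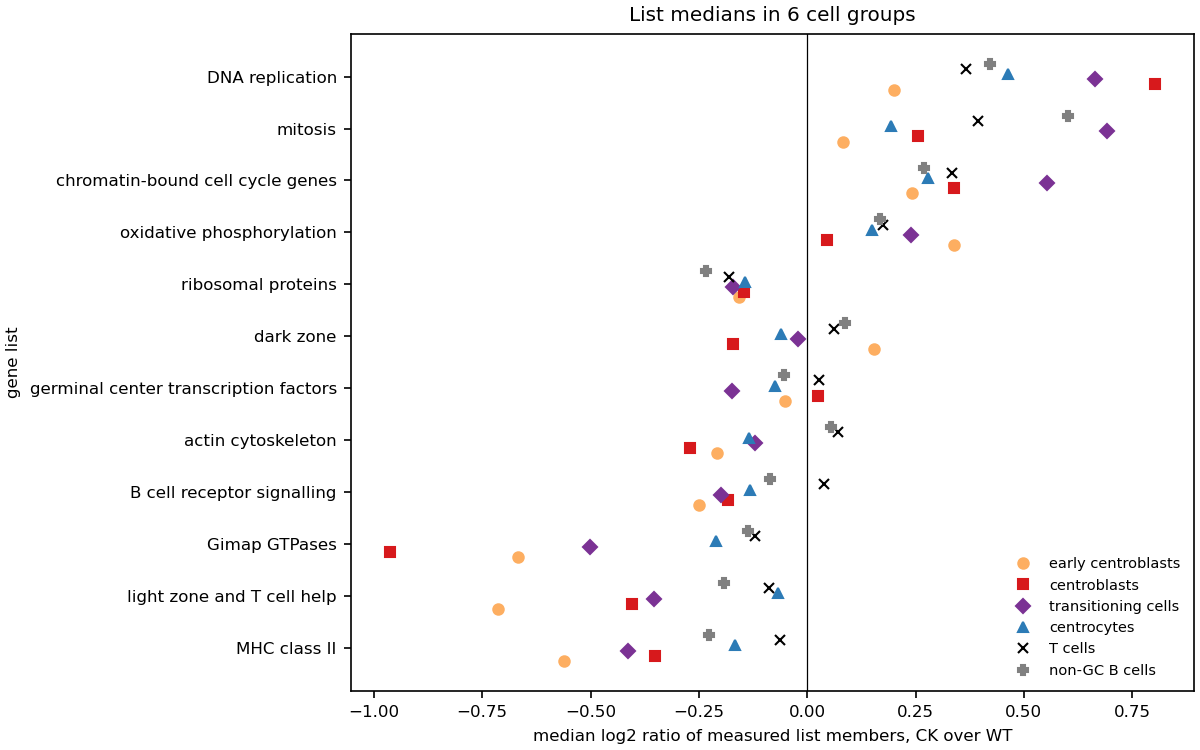
Median log2 ratio of CK over WT for 12 gene lists in 6 cell groups, with 1 symbol per cell group. The lowest medians are those of Gimap genes in centroblasts (-0.96), light zone genes in early centroblasts (-0.71) and Gimap genes in early centroblasts (-0.67), and DNA replication, mitosis and chromatin-bound cell cycle lists lie above 0 in every cell group, T cells included.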

How the data were processed

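Single-cell RNA of sorted splenic B220+IgD- cells was measured at 3′ transcript ends on a droplet platform, each genotype being 1 library. Cell Ranger (version 3.0 in the submitters' processing notes, 3.0.2 in the file headers) was run by the authors, and their deposited matrices give unnormalised UMI counts for 31053 genes. The notes name mm10 and Seurat 4.0. The deposited cell table gives the authors' stage names, the percent of mitochondrial UMIs and module scores, of which the S phase score was used. Its UMI counts equalled matrix sums in 79.91% of cells.

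Counts were summed per library and cell group, and immunoglobulin and mitochondrial genes were kept in the totals. Ratios carry exact conditional binomial intervals and levels exact Poisson intervals, all at 95% and for counting error only. Non-GC B cells were barcodes without a stage name with at least 3 UMIs of Cd79a, Cd79b and Ms4a1 and none of the Cd3 genes or GC markers. Early centroblasts labelled from their 25 nearest cells received their own name in 74.9% of cases, and all stages together in 89.05%. No doublets were removed from the values given. The steps were tested on simulated counts. One GC marker gene is not reported here.

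The genes named were, in each direction, the 12 with the largest smallest log2 ratio among shared genes absent from T cells, without immunoglobulin and mitochondrial genes, 5 of those also past the fold in T cells, Crebbp, Kmt2d and members of the lists. Genes between both T cell limits, Ube2e3, Hspe1 and those found with only the later stages or with added cells were named after their values were seen. The comparison, its members and the lists were chosen with earlier results of these data known. Tools were Python 3.11.15, numpy 2.4.6, scipy 1.17.1, pandas 2.3.3, scanpy 1.11.5, scikit-learn 1.9.0 and matplotlib 3.10.9. Alternatives covered scaling, genes in the total, filters on counts, depth, weight of cells, doublets, the gene limit, T cell definitions, reference cells and folds.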

Additional observations from a re-analysis of the deposited data

How the results depend on the processing

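No paired analysis was possible because each genotype had 1 library, and for the same reason no library could be left out. No value past the fold in the GC stages changed direction under any alternative, and counts not named here stayed within 1.5 times the reported ones. Counts of shared genes are small and moved with the filter, the fold and the cells. Genes higher in all 3 stages (9) numbered 3 with at least 50 expected UMIs, 53 with no filter, 3 with cells thinned to 2000 UMIs, 5 with equal weights and 0 past 2-fold, and those absent from T cells (4) numbered 1, 29 and 0 under the first 3 settings, 7 with added cells, 1 with non-GC B cells as reference, 0 past 2-fold and 9 with 1.5-fold allowed in T cells. Genes lower in all 3 stages (5) numbered 2, 112 and 0 under those 3 settings, 19 with added cells and 1 past 2-fold, and those absent from T cells (2) numbered 1, 56 and 0, 0 without Scrublet calls, 9 with added cells, 1 with non-GC B cells, 0 past 2-fold and 4 with 1.5-fold allowed. For genes of both later stages absent from T cells, the 29 higher became 8 at 50 UMIs, 240 with no filter, 3 past 2-fold and 52 with 1.5-fold allowed, and the 30 lower became 12, 173, 1 past 2-fold and 17 thinned.

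In early centroblasts the 131 higher genes became 85 with median-ratio scaling, 38 at 50 UMIs, 1392 with no filter, 37 thinned and 15 past 2-fold, and the 89 lower became 135, 18, 2030, 26 and 20, and 290 with added cells. In transitioning cells the 340 higher became 163 at 50 UMIs, 1253 with no filter, 185 with added cells and 68 past 2-fold, and the 383 lower became 159, 1569, 213 thinned and 48 past 2-fold. In centrocytes the 276 higher became 72, 1264, 163 thinned and 28, and the 224 lower became 59, 1024 and 31 past 2-fold. Chosen after seeing the data, the later stages alone gave 61 higher genes (29 absent from T cells) and 55 lower (30), centroblasts in place of early centroblasts 24 (7) and 21 (10), and a lower threshold of 0.32 on the log2 scale 81 (49) and 38 (29). With added cells the medians moved to -0.173 and -0.202 for MHC class II in early centroblasts and transitioning cells, -0.355 for light zone genes in early centroblasts, and 0.133, 0.179, 0.202 and -0.226 in transitioning cells for DNA replication, mitosis, chromatin-bound cell cycle and ribosomal protein genes. Of 154 gene values, 25 moved with added cells, 12 with thinning and 1 with equal weights. The cause was not tested. Early centroblasts limit the depth, since 1 WT UMI is 4.25 CPM.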

Other observations

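Several genes differed between CK and WT in T cells as well as in GC cells, and are given as values only. Cdk5rap1, which modifies transfer RNA, was at 5.3 (WT), 6.49 (C), 4.92 (K) and 32.5 CPM (CK) in transitioning cells, and at 6.71, 4.86, 5.56 and 20.7 CPM in T cells, so that only the CK library was high. Ly6k, a surface protein of the Ly6 family, was high in K and CK in both cell groups, with 5.3, 3.54, 17.3 and 29.0 CPM in transitioning cells and 7.82, 7.76, 23.2 and 32.9 CPM in T cells. Gm42418, which overlaps ribosomal RNA sequence, was at 643 (WT), 1010 (C), 191 (K) and 1320 CPM (CK) in transitioning cells and at 1000, 1620, 247 and 1850 CPM in T cells.

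WT stood apart from all 3 mutant libraries for Gm47283, annotated at chrY:90784738-90816464 on GRCm38. It was at 181 (WT), 47.2 (C), 70.9 (K) and 45.6 CPM (CK) in transitioning cells and at 188, 46.7, 55.2 and 37.8 CPM in T cells. Mid1 on the X chromosome had 15.5, 8.26, 4.33 and 4.04 CPM in transitioning cells and 12.4, 3.42, 2.08 and 4.28 CPM in T cells. Fcer2a, the low-affinity IgE receptor CD23 of follicular B cells, was low in K and CK, with 246 (WT), 278 (C), 137 (K) and 108 CPM (CK) in centrocytes, and 19.5 and 7.44 CPM in WT and CK T cells. Hbb-bt, a hemoglobin gene, was at 83.2 (WT) and 32.6 CPM (CK) in transitioning cells and at 76.6 and 15.2 CPM in T cells, where all erythroid and platelet markers summed to 939.9 and 107.1 CPM.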
